A study of Mus musculus with 8 samples.

Results

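Myostatin, the muscle gene *Mss51* and the activin branch of TGF-beta signaling were examined in muscle of control mice and of mice that lack LSD1 in myofibers. They are represented by 10 genes of the 27041 rows in the count table. These are the ligand *Mstn*, the muscle gene *Mss51*, the receptors *Acvr2a*, *Acvr2b* and *Acvr1b*, the ligand-binding proteins *Fst* and *Fstl3*, and the signal transducers *Smad2*, *Smad3* and *Smad7*. They were listed by name, with earlier results of this same contrast in view. Their values between the groups are therefore given as a description, without p-values, and calls from the fits across all genes that include them are counted only beside the share of all genes called.

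Transcripts of skeletal muscle from 9-week-old C57BL/6J mice were read by RNA-seq. The paper's results name the gastrocnemius for this RNA-seq, its methods name male mice, and the labels name no muscle. Ctrl mice carry *Kdm1a* alleles whose first exon is flanked by LoxP sites (LSD1 L2/L2), and LSD1skm-/- mice carry the same floxed alleles together with the HSA-Cre transgene. The skeletal alpha-actin promoter drives this Cre in myofibers, so that other cells of the muscle keep their *Kdm1a* alleles, and no mouse of either group was treated. Counts were available for 6 of the 8 labelled libraries, Ctrl replicates 1 to 4 and LSD1skm-/- replicates 1 and 2, and LSD1skm-/- replicates 3 and 4 were not analysed here.

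Myostatin is a secreted TGF-beta family ligand, made mainly by skeletal muscle, that restrains muscle growth. It binds the type II receptors ActRIIB and ActRIIA, which then recruit a type I receptor such as ALK4, the product of *Acvr1b*. The active receptor phosphorylates SMAD2 and SMAD3, which move to the nucleus with SMAD4 and change transcription, whereas follistatin, FSTL3 and SMAD7 oppose the signal outside and inside the cell.

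*Kdm1a*, the deleted gene, was read at 23.0, 22.0, 28.1 and 3.66 CPM (counts per 1000000 reads, scaled by edgeR's TMM method) in Ctrl replicates 1 to 4, and at 2.96 and 3.48 CPM in LSD1skm-/- replicates 1 and 2. The library labelled Ctrl replicate 4 thus had a *Kdm1a* level beside those of the mutants, against its label. On the first principal component of all genes tested, which held 50% of the variance, this library (22.1) also lay with the mutants (22.2 and 25.4), whereas Ctrl replicates 1 to 3 lay between -25.2 and -21.4. The label was kept, and each result is given by the labels and again without this library. Counts per library summed to between 30654828 and 41278769, and 11364 genes with a mean count above 50 were tested by the labels (11200 without the library labelled Ctrl replicate 4). The labels number the libraries without saying that each came from its own mouse, so p-values measure only the spread between these libraries, which may be technical.

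*Mstn*, at chr1:53061640-53068079 on the plus strand of GRCm38, was lower in LSD1skm-/- muscle. Its level was 158, 102 and 124 CPM in Ctrl replicates 1 to 3, 57.2 CPM in the library labelled Ctrl replicate 4, and 47.5 and 53.2 CPM in LSD1skm-/- replicates 1 and 2. Every library labelled Ctrl was above both mutant libraries, with the library labelled Ctrl replicate 4 only just so. The mutant mean of 50.3 ± 3.98 CPM (SD, n = 2) was 45.7% of the mean of the 4 libraries labelled Ctrl (110.2 ± 42.2, SD), and 39.4% of the mean of Ctrl replicates 1 to 3 (128 ± 28.1, SD, n = 3). The fitted log2 fold change was -1.13 (SE 0.36) by the labels and -1.34 (SE 0.19) without the library labelled Ctrl replicate 4. In bulk muscle, fewer cells of a type and less RNA per cell cannot be told apart.

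*Mss51* is expressed almost exclusively in skeletal muscle, encodes a protein that is found at mitochondria, and is known as a gene whose level falls in muscle when myostatin is blocked. It lies at chr14:20482867-20496901 on the minus strand of GRCm38. Its level was 101.5, 83.0 and 115 CPM in Ctrl replicates 1 to 3, 8.44 CPM in the library labelled Ctrl replicate 4, and 4.60 and 6.33 CPM in LSD1skm-/- replicates 1 and 2. The libraries fell into a high set of 3 and a low set of 3, and the low set held the library labelled Ctrl replicate 4. LSD1skm-/- muscle held 7.09% of the mean of all libraries labelled Ctrl and 5.47% of that of Ctrl replicates 1 to 3. The library labelled Ctrl replicate 4 held 8.44% of the mean of Ctrl replicates 1 to 3. As a ratio of means, Ctrl exceeded LSD1skm-/- 14.1-fold by the labels and 18.3-fold without that library, with fitted log2 fold changes of -3.81 (SE 0.98) and -4.18 (SE 0.22). The wide error by the labels goes with the position of 1 library. These levels rest on 2695 to 3976 reads in Ctrl replicates 1 to 3, on 369 reads in the library labelled Ctrl replicate 4, and on 146 and 238 reads in the mutants.

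**Figure D1:**
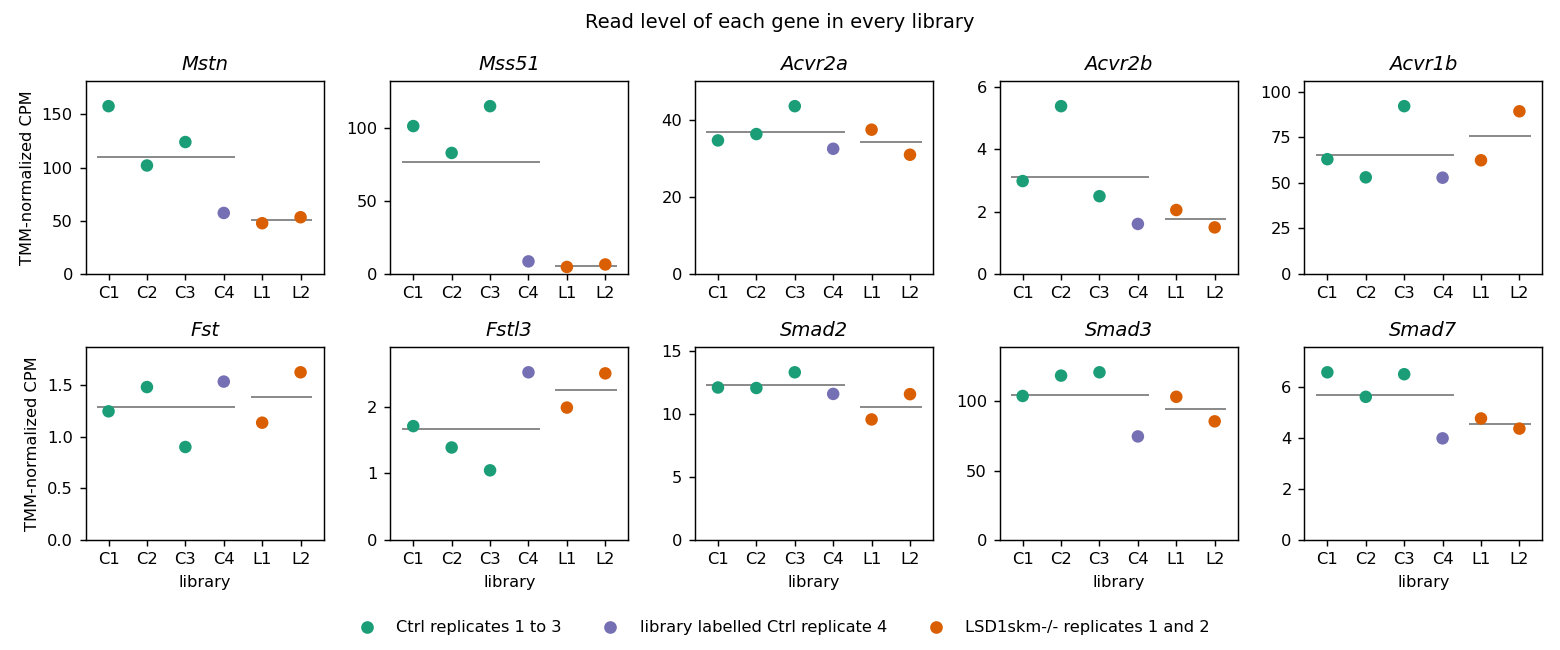
TMM-normalized CPM of each of the 10 genes (vertical axes from 0, a scale of its own per panel) in every library (horizontal axis: C1 to C4, Ctrl replicates 1 to 4; L1 and L2, LSD1skm-/- replicates 1 and 2), with points as libraries and grey lines as group means by the labels. *Mss51* stands between 83.0 and 115 CPM in C1 to C3 and between 4.60 and 8.44 CPM in the other libraries, and *Mstn* shows the same split between 101.9 and 157.8 CPM against 47.5 to 57.2 CPM.

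The sequences just upstream of these genes are shown because *Mstn* and *Mss51* are the members with the largest differences. RefSeq promoter windows on GRCm38.p6 were found by symbol for 7 of the 10 genes (all but *Fst*, *Smad2* and *Smad7*) and trimmed to the 250 bases before the start site. The *Mstn* window is chr1:53061390-53061639 on the plus strand and the *Mss51* window is chr14:20496902-20497151 on the minus strand. Capitals mark the Smad motif CAGAC, E-boxes of the form CANNTG and the TATA motif TATAAA in *Mstn*, and the palindromic Smad element GTCTAGAC in *Mss51*.
Mstn: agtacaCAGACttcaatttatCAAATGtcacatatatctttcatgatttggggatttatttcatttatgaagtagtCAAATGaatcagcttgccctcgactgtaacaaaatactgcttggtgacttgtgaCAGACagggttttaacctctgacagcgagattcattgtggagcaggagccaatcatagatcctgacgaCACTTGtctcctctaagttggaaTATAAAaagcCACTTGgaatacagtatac
Mss51: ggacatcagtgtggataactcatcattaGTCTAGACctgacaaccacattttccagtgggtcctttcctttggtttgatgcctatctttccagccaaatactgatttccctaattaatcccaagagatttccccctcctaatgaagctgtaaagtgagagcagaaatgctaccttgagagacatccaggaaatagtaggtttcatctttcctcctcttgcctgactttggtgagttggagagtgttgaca

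Motifs were searched on both strands of each window, and none of the capitalised matches overlaps another. The Smad element GTCTAGAC occurred in the *Mss51* window, starting 222 bases before the start site, and in no other of the 7 windows. It is rare, with a match in 0.167% of 32851 RefSeq windows of the same length. Those 55 windows belong to 54 gene symbols, of which 21 passed the filter on counts. Their median log2 fold change was -0.012 by the labels and -0.004 without the library labelled Ctrl replicate 4, with 0 called by edgeR in the first fit and 2 in the second, *Mss51* and *Zfp52* (named after its value was seen). The medians over all genes tested were -0.008 and -0.005, and 0% and 5.27% of all genes were called, so nothing is read from these counts, of which *Mss51* was already known to differ. A match is a description of letters and not a site of binding.

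The short Smad motif CAGAC, present in 42.2% of windows, had 2 matches in *Mstn*, 2 in *Fstl3*, 1 each in *Acvr2a* and *Acvr2b*, and none in *Mss51*. E-boxes (CANNTG, 66.2% of windows), the motif of the myogenic bHLH factors, had 4 matches in *Mstn*, starting 229, 174, 52 and 19 bases before the start site, 3 in *Fstl3*, 1 in *Acvr1b* and none in *Mss51*. TATAAA (12.4% of windows) started 29 bases before the start site in both *Mstn* and *Fstl3*. The palindromic glucocorticoid response element (0.00913% of windows) had no match in any of the 7 windows. The NRF1 motif (3.74% of windows) matched in *Acvr1b* and the MEF2 motif (3.2% of windows) in *Acvr2b*.

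By the labels and without the library labelled Ctrl replicate 4, fitted log2 fold changes of the receptor genes were smaller in size than those of *Mstn* and *Mss51*. For *Acvr2b* and *Mstn* the ranges of 1 standard error overlapped. Without LSD1skm-/- replicate 1 *Acvr2b* was at -1.061 and *Mstn* at -1.054. *Acvr2a* (chr2:48814109-48903269, plus strand), which encodes the type II receptor ActRIIA, was read at 34.6, 36.3, 43.5 and 32.4 CPM in Ctrl replicates 1 to 4 and at 37.4 and 30.9 CPM in LSD1skm-/- replicates 1 and 2. The groups overlapped both by the labels and without replicate 4 of Ctrl, and the log2 fold changes were -0.10 (SE 0.15) and -0.16 (SE 0.14). Its exons share 7.84% of their bases with *Orc4* on the opposite strand, a gene with 636 to 833 reads per library. Whether the counting used strand is not given in the sources used here, so that part of the *Acvr2a* reads is uncertain.

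*Acvr2b* (chr9:119402118-119434995, plus strand) encodes ActRIIB, the type II receptor that binds myostatin most tightly. Its level was 2.98, 5.39, 2.49 and 1.60 CPM in Ctrl replicates 1 to 4 and 2.05 and 1.49 CPM in LSD1skm-/- replicates 1 and 2. By the labels the groups overlapped, through the library labelled Ctrl replicate 4, which lay between the mutant libraries. Without it both mutant libraries were below all Ctrl libraries, and the log2 fold change moved from -0.81 (SE 0.47) to -1.03 (SE 0.37). It was -0.415 when Ctrl replicate 2, the highest library, was left out, and -0.632 without Ctrl replicates 2 and 4. These values rest on 56 to 175 reads per library.

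*Acvr1b* (chr15:101174067-101213684, plus strand), which encodes the type I receptor ALK4, varied within both groups, which were intermixed. It was read at 63.1, 53.1, 92.3 and 52.9 CPM in Ctrl replicates 1 to 4 and at 62.5 and 89.4 CPM in LSD1skm-/- replicates 1 and 2. The log2 fold change was 0.22 (SE 0.25) by the labels and 0.13 (SE 0.25) without the library labelled Ctrl replicate 4, and its sign changed in 3 of 22 alternative settings.

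Among the extracellular traps, *Fst* (chr13:114452290-114458951, minus strand) encodes follistatin, which binds activins and myostatin and keeps them from their receptors. It was near the lower limit of the test, at 1.24, 1.48, 0.899 and 1.53 CPM in Ctrl replicates 1 to 4 and 1.13 and 1.62 CPM in LSD1skm-/- replicates 1 and 2. Its mean count of 47.7 was under the limit of 50, so that it was the only member not tested. Fitted with every gene that had a count, its log2 fold change was 0.09 (SE 0.35).

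*Fstl3* (chr10:79777272-79782630, plus strand) encodes follistatin-like 3, which also binds myostatin and activins. It was read at 1.71, 1.39, 1.04 and 2.52 CPM in Ctrl replicates 1 to 4 and at 1.99 and 2.50 CPM in LSD1skm-/- replicates 1 and 2. It was the only member tested whose mutant libraries were both above Ctrl replicates 1 to 3, and the library labelled Ctrl replicate 4 was the highest of all. The log2 fold change was 0.42 (SE 0.35) by the labels and 0.71 (SE 0.26) without that library, on 36 to 110 reads. *Prss57* on the opposite strand covers 47.3% of the *Fstl3* exon bases and had 1 to 3 reads per library.

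Of the receptor-activated Smads, *Smad2* (chr18:76241580-76310963, plus strand) was read at 12.1, 12.1, 13.3 and 11.6 CPM in Ctrl replicates 1 to 4 and at 9.58 and 11.6 CPM in LSD1skm-/- replicates 1 and 2. Both mutant libraries were below all Ctrl libraries by the labels, but the margin between the nearest libraries was 11.61 against 11.59 CPM. The log2 fold change was -0.21 (SE 0.13) by the labels, -0.24 (SE 0.13) without the library labelled Ctrl replicate 4 and, with all of Ctrl kept, -0.09 when LSD1skm-/- replicate 1 was left out.

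*Smad3* (chr9:63646767-63757994, minus strand), the transducer with the higher level per exon length, stood at 104, 119, 121 and 74.7 CPM in Ctrl replicates 1 to 4 and at 103 and 85.6 CPM in LSD1skm-/- replicates 1 and 2. The groups overlapped by the labels because the library labelled Ctrl replicate 4 was the lowest of all, and did not overlap without it (103.3 against 103.9 CPM at the margin). The log2 fold change was -0.15 (SE 0.20) and -0.27 (SE 0.13), respectively.

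*Smad7* (chr18:75367529-75395935, plus strand) encodes the inhibitory Smad that blocks the receptor and is itself induced by the pathway. Its level was 6.57, 5.61, 6.49 and 3.98 CPM in Ctrl replicates 1 to 4 and 4.76 and 4.36 CPM in LSD1skm-/- replicates 1 and 2. It repeated the pattern of *Smad3*, with the library labelled Ctrl replicate 4 lowest and no overlap without it. The log2 fold change was -0.31 (SE 0.23) by the labels and -0.45 (SE 0.16) without that library.

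**Figure D2:**
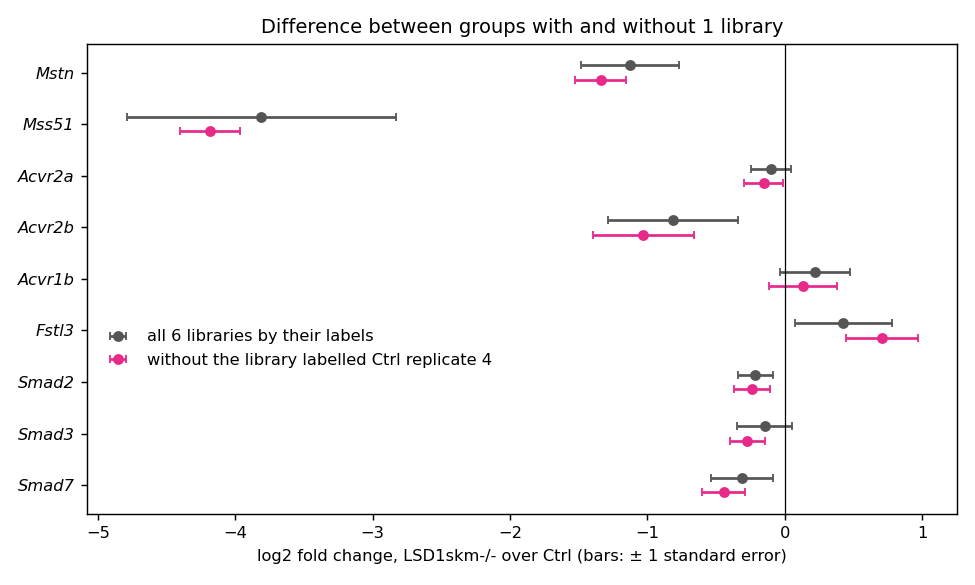
Log2 fold change of LSD1skm-/- over Ctrl (horizontal axis) for the 9 genes tested (vertical axis), fitted by the labels (grey) and without the library labelled Ctrl replicate 4 (pink), with bars of 1 standard error on either side. *Mss51* (-3.81 and -4.18) and *Mstn* (-1.13 and -1.34) lie farthest below 0, *Fstl3* (0.42 and 0.71) lies above it, and the bars of *Mss51* shorten from 0.98 to 0.22 without that library.

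Calls are read against all genes tested. By the labels edgeR's quasi-likelihood test called 0 of 11364 genes at an adjusted p under 0.05 (0% called), and 0 of the 9 members tested. At an unadjusted p under 0.05 it held 1011 genes (8.9%), *Mss51* and *Mstn* among them, and both also passed when a fold above 1.3 or below 0.77 was required (717 genes, 6.31%). DESeq2 called 46 genes (0.405%), *Mss51* among them. Without the library labelled Ctrl replicate 4 edgeR called 590 of 11200 genes (5.27%), of which 476 were higher (4.25%) and 114 lower (1.02%), and 2 of the 9 members, *Mss51* and *Mstn*, both lower. DESeq2 then called 1037 genes (9.26%), with the same 2 members. When a mutant library was also left out, only 1 mutant library remained, so no calls are given for those fits. Without LSD1skm-/- replicate 1 or replicate 2, the log2 fold change was -3.98 or -4.44 for *Mss51* and -1.265 or -1.425 for *Mstn*. Since the members were listed with this contrast known, nothing is read from the counts of calls.

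By the labels, groups did not overlap for 17.8% of genes (8.02% lower and 9.8% higher in LSD1skm-/-), and for 3 of the 9 members, *Mstn*, *Mss51* and *Smad2*, all lower. Without the library labelled Ctrl replicate 4 they did not overlap for 37.6% of genes (17.5% lower and 20.1% higher), and for 7 members, 6 of them lower and *Fstl3* higher. The median log2 fold change of the members tested was -0.21 by the labels and -0.27 without that library, beside -0.01 over all genes tested in either fit. The library labelled Ctrl replicate 4 was nearer to the mutant mean than to the mean of Ctrl replicates 1 to 3 for 7 of the 9 members (77.8%) and for 6890 of the 11364 genes (60.6%).

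Levels were set side by side between genes as CPM per kb of exon. Over the 6 libraries *Mstn* had the highest mean, at 33.4 CPM per kb (range 17.6 to 58.3), followed by *Mss51* at 29.1 (2.52 to 63.1), *Smad3* at 18.3 (13.5 to 21.8), *Acvr1b* at 15.6 (12.0 to 20.9) and *Acvr2a* at 6.31 (5.43 to 7.65). *Smad2* (1.34 CPM per kb, 1.09 to 1.52), *Smad7* (1.17, 0.880 to 1.45), *Fstl3* (0.759, 0.427 to 1.03), *Acvr2b* (0.679, 0.379 to 1.37) and *Fst* (0.287, 0.196 to 0.353) came after. Ranges of neighbours in this order overlapped except between *Acvr1b* and *Acvr2a*, between *Acvr2a* and *Smad2* and between *Acvr2b* and *Fst*. The type II receptor transcript present at the higher level was therefore *Acvr2a*, whose range lay above that of *Acvr2b*.

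The order of the top genes differed between groups. In Ctrl replicates 1 to 3 *Mss51* (45.5 to 63.1 CPM per kb) and *Mstn* (37.7 to 58.3) overlapped each other and lay above the other 8 genes. In LSD1skm-/- muscle *Mstn* was at 17.6 and 19.7 CPM per kb, within reach of *Smad3* (15.4 to 18.6) and *Acvr1b* (14.1 to 20.2). *Mss51*, at 2.52 and 3.47 CPM per kb, was then below *Acvr2a* (5.43 to 6.58).

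**Figure D3:**
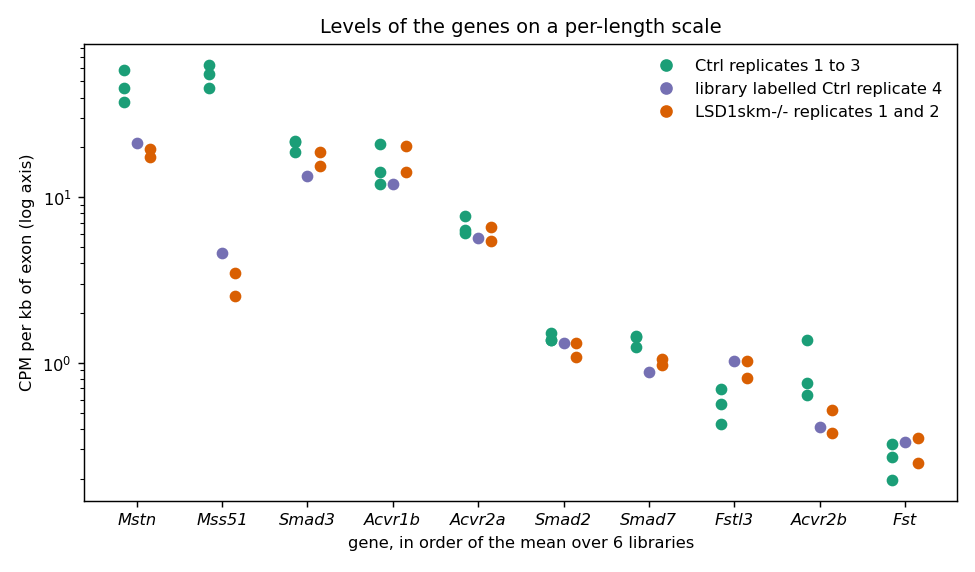
Level of each of the 10 genes in CPM per kb of exon (vertical log axis) in order of the mean over 6 libraries (horizontal axis), with a point per library. *Mss51* runs from 63.1 down to 2.52 CPM per kb between Ctrl replicates 1 to 3 and the mutants, whereas *Acvr2a* stays between 5.43 and 7.65 in all 6 libraries.

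The rest of the TGF-beta family pathway was read from a list of 71 other genes in 8 roles. The list was written from general knowledge, but with earlier results of these data known. Of its genes, 69 are in the table and 51 passed the filter. By the labels 0 of the 51 were called by edgeR (0% of all genes). At an unadjusted edgeR p under 0.05 there were 6 (*Gdf11* and *Nedd4l* lower, *Bmp4*, *Dcn*, *Nog* and *Pcsk6* higher), beside 8.9% of all genes. DESeq2 called 2, *Gdf11* and *Nedd4l*, beside 0.405% of all genes. Without the library labelled Ctrl replicate 4, edgeR called 3 of 51, *Gdf11* and *Nedd4l* lower and *Nog* higher, beside 5.27% of all genes. The median log2 fold change of the list was -0.01 in both fits, beside -0.01 over all genes. The library labelled Ctrl replicate 4 was singled out by its values in these data. Adjusted p-values from the fit without it are therefore given as a description only.

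*Gdf11*, the closest relative of myostatin in sequence, which signals through the same receptors, was read at 11.0, 13.1, 10.2 and 7.86 CPM in Ctrl replicates 1 to 4 and at 3.72 and 5.10 CPM in LSD1skm-/- replicates 1 and 2. All libraries labelled Ctrl were above both mutants. Without the library labelled Ctrl replicate 4 it fell by 1.36 on the log2 scale (SE 0.19, edgeR quasi-likelihood p adjusted by Benjamini-Hochberg = 0.00923), and by the labels the log2 fold change was -1.25 (adjusted p = 0.557). The call was lost when LSD1skm-/- replicate 1 was also left out (adjusted p = 0.0582). Per exon length *Gdf11* was far below *Mstn*, at 2.50 to 3.22 CPM per kb in Ctrl replicates 1 to 3, 1.94 in the library labelled Ctrl replicate 4 and 0.915 to 1.26 in LSD1skm-/- muscle.

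*Nedd4l*, a ubiquitin ligase that targets activated SMAD2 and SMAD3, was at 46.3, 38.1, 35.8 and 31.1 CPM in Ctrl replicates 1 to 4 and at 20.0 and 21.8 CPM in LSD1skm-/- replicates 1 and 2. The mutants were again the lowest libraries. It fell by 0.93 on the log2 scale without the library labelled Ctrl replicate 4 (SE 0.14, edgeR adjusted p = 0.0115), with -0.85 by the labels (adjusted p = 0.557), and the call was lost when either mutant library was also left out (adjusted p = 0.0851 and 0.0906).

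*Nog*, which encodes the BMP antagonist noggin, was at 4.20, 5.33, 3.94 and 7.70 CPM in Ctrl replicates 1 to 4 and at 7.22 and 9.70 CPM in LSD1skm-/- replicates 1 and 2. The library labelled Ctrl replicate 4 lay between the mutant libraries. Without it *Nog* rose by 0.92 on the log2 scale (SE 0.20, edgeR adjusted p = 0.0426), with 0.67 by the labels (adjusted p = 0.557). The call was lost when Ctrl replicate 1, Ctrl replicate 3 or either mutant library was also left out, with adjusted p from 0.0747 to 0.283.

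In each role the 2 genes of highest mean CPM are named, a choice that is no ranking per length, and their levels are given per kb. The 8 TGF-beta family ligands tested of 19 listed had a median log2 fold change of 0.07 by the labels and 0.13 without the library labelled Ctrl replicate 4. *Gdf11* was the only ligand called in the second fit, and the ligands named were *Tgfb3* (7.34 to 10.2 CPM per kb over the 6 libraries) and *Tgfb2* (2.61 to 3.44). The 5 other type I receptors tested had a median of -0.20 and -0.33 with 0 called. The BMP receptor *Bmpr1a* (9.85 to 13.6 CPM per kb) and the TGF-beta receptor *Tgfbr1* (3.61 to 6.14) were named. The 5 type II receptors and co-receptors tested had a median of -0.01 and -0.02 with 0 called, and *Bmpr2* (6.53 to 8.20 CPM per kb) and *Eng* (8.05 to 11.3) were named.

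The 10 extracellular antagonists and latency proteins tested had a median of 0.12 by the labels and 0.19 without the library labelled Ctrl replicate 4, with 1 called higher in the second fit, *Nog*. *Tcap* was counted in this role although its product, the titin cap protein that can bind myostatin, lies at the Z-disc inside the cell. It stood at 2527 to 4430 CPM per kb and had log2 fold changes of -0.15 and -0.27. *Dcn*, which encodes the matrix protein decorin, stood at 33.5 to 51.0 CPM per kb. The 3 ligand-processing proteases tested all had log2 fold changes above 0, with a median of 0.11 and 0.40 and 0 called, and *Furin* (4.32 to 5.13 CPM per kb) and *Bmp1* (1.32 to 2.53) were named.

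Inside the cell, the 4 other Smads tested had a median of -0.09 by the labels and -0.12 without the library labelled Ctrl replicate 4, with 0 called. *Smad4*, the common partner of SMAD2 and SMAD3, stood at 8.80 to 14.6 CPM per kb, and the BMP transducer *Smad5* at 3.85 to 5.78. The 9 intracellular regulators tested had a median of -0.21 and -0.27, with *Nedd4l* called lower in the second fit. The Smad anchor *Zfyve9* (7.69 to 16.4 CPM per kb) and the Smad co-repressor *Ski* (7.66 to 9.09) were named. The 7 known targets, all tested, had a median of -0.29 and -0.18 with 0 called. Those named were *Fbxo30* (2.48 to 3.74 CPM per kb), a ubiquitin ligase of muscle atrophy, and *Ccn2* (3.49 to 5.42), a matrix growth factor induced by TGF-beta.

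**Figure D4:**
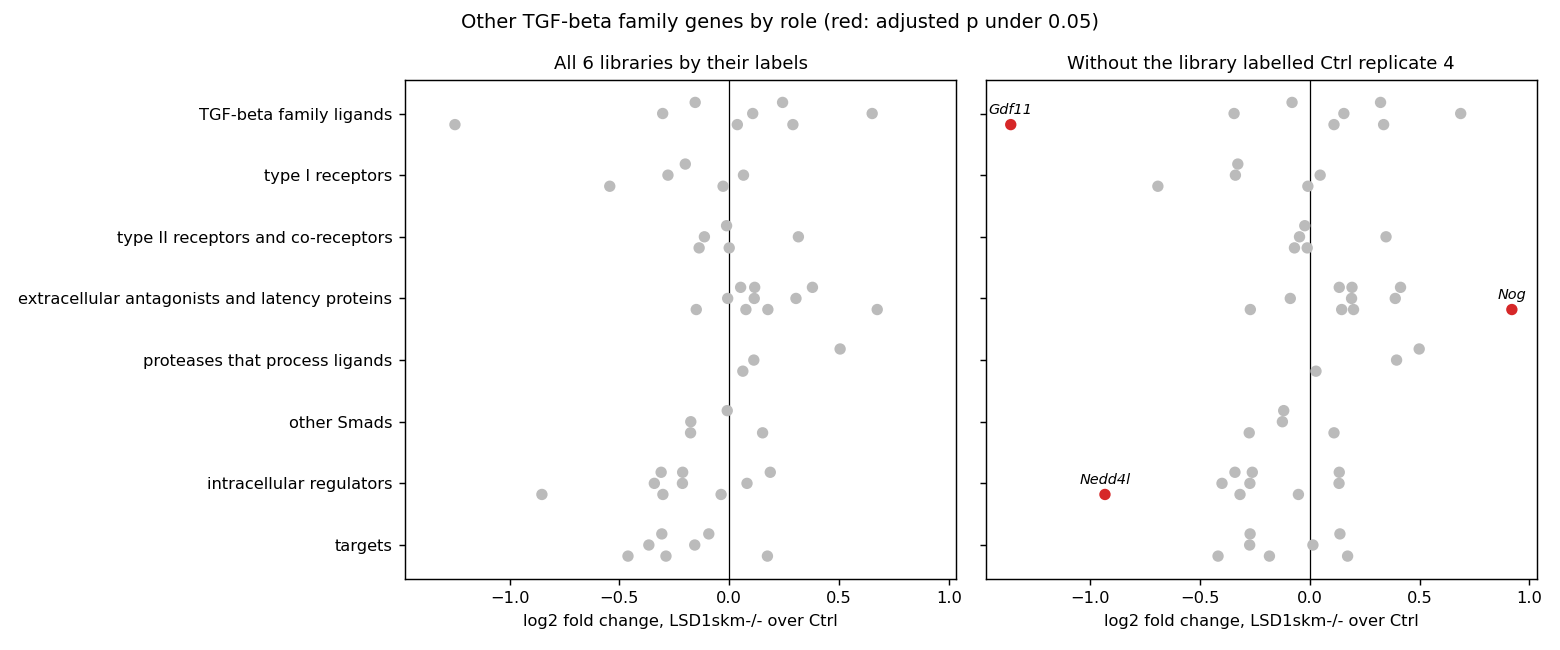
Log2 fold change of LSD1skm-/- over Ctrl (horizontal axes) of the 51 other pathway genes tested, a point each, by role (vertical axis), by the labels (left) and without the library labelled Ctrl replicate 4 (right), with genes at an edgeR adjusted p under 0.05 in red. No gene is red on the left, and *Gdf11* (-1.36), *Nedd4l* (-0.93) and *Nog* (0.92) are red on the right, and the medians of the 8 roles lie between -0.33 and 0.40 on the right.

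Markers of the cell types a muscle sample can hold were read in the same libraries, and no marker of any list was at 0 in all of them. The myofiber list (6 markers) summed to 77640 to 86660 CPM in Ctrl replicates 1 to 3, 81350 CPM in the library labelled Ctrl replicate 4 and 77120 to 83270 CPM in LSD1skm-/- muscle, so the tissue label holds in every library. The 8 fast-twitch markers summed to 124200 to 136100, 112700 and 108700 to 115900 CPM in that order, with 4 of 8 on the positive side (log2 fold change above 0) and 0 called in either fit.

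Several lists differed between Ctrl replicates 1 to 3 and the mutants along with *Mstn* and *Mss51*. The fast-twitch, endothelial and satellite cell sums also did not overlap between them. Without the library labelled Ctrl replicate 4, edgeR called 4.25% of all genes higher and 1.02% lower, beside the markers called here. The 7 fibroblast markers summed to 289 to 303 CPM in Ctrl replicates 1 to 3, 539 CPM in the library labelled Ctrl replicate 4 and 404 to 499 CPM in LSD1skm-/- muscle, with 7 of 7 on the positive side and 2 called higher without that library. The 6 slow-twitch markers summed to 821 to 1675, 936 and 312 to 654 CPM, with 0 of 6 on the positive side and 1 called lower. The 6 adipocyte markers (*Adipoq*, *Plin1*, *Cidec*, *Lep*, *Car3* and *Retn*) summed to 2204 to 3896, 1213 and 926 to 1090 CPM. Of the 5 tested, 0 were on the positive side and 1 was called lower. This sum and the slow-twitch sum were both largest in Ctrl replicate 3, at 3896 and 1675 CPM. A sum follows the markers with the most reads, so this one is not read as an amount of adipocytes. The mean log2 CPM of the same 6 markers, which weights them equally, ordered the libraries otherwise, at 3.85, 3.80 and 0.99 in Ctrl replicates 1 to 3, 4.25 in the library labelled Ctrl replicate 4 and -0.25 and 0.36 in LSD1skm-/- muscle, so that only the sum placed the library labelled Ctrl replicate 4 near the mutants. Of the denervation list, 5 of 6 tested were on the positive side and 1 was called higher, and the sum was 65.8 to 75.2, 89.3 and 88.4 to 96.2 CPM. Their part in the *Mstn* and *Mss51* values was not tested.

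The endothelial list summed to 158 to 176 CPM in Ctrl replicates 1 to 3, 210.3 CPM in the library labelled Ctrl replicate 4 and 137 to 139 CPM in LSD1skm-/- muscle, with 0 of 6 on the positive side and 0 called. The satellite cell list summed to 26.3 to 29.2, 34.8 and 33.5 to 35.1 CPM and the immune list to 8.09 to 25.4, 13.6 and 11.7 to 17.9 CPM, with 0 called in either.

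The genes whose profile over the 6 libraries was nearest to that of *Mstn* were chosen by the root mean square difference of mean-centred log2 CPM among 11364 genes. They were *Amy1* (0.107), *Fmnl2* (0.112), *Chd6* (0.159), *Tma16* (0.193) and *Slc7a2* (0.208). *Slc7a2*, a cationic amino acid transporter, was read at 193 to 211 CPM in Ctrl replicates 1 to 3, 89.1 CPM in the library labelled Ctrl replicate 4 and 75.8 to 84.9 CPM in LSD1skm-/- muscle. *Chd6*, a chromatin remodeler, was at 32.8 to 56.2, 25.0 and 19.9 to 22.7 CPM.

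Nearest to *Mss51* were *Cd28* (0.435), *Kdm1a* itself (0.598), *Fgfbp1* (0.656), *1700001O22Rik* (0.751) and *H1f4* (0.828). The distances are larger than for *Mstn*. All 5 genes are high in Ctrl replicates 1 to 3 and low in the other 3 libraries, which follows from how they were chosen. Both choices used all 6 libraries and were not repeated without the library labelled Ctrl replicate 4. *Cd28*, a T cell co-stimulatory receptor, was at 5.28 to 7.27 CPM in Ctrl replicates 1 to 3, 0.617 CPM in the library labelled Ctrl replicate 4 and 0.441 to 0.638 CPM in the mutants. *Fgfbp1*, a secreted carrier of fibroblast growth factors, was at 5.64 to 9.33, 1.21 and 0.662 to 1.25 CPM. The profiles share their 6 libraries, and likeness over 6 points is a description only.

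**Figure D5:**
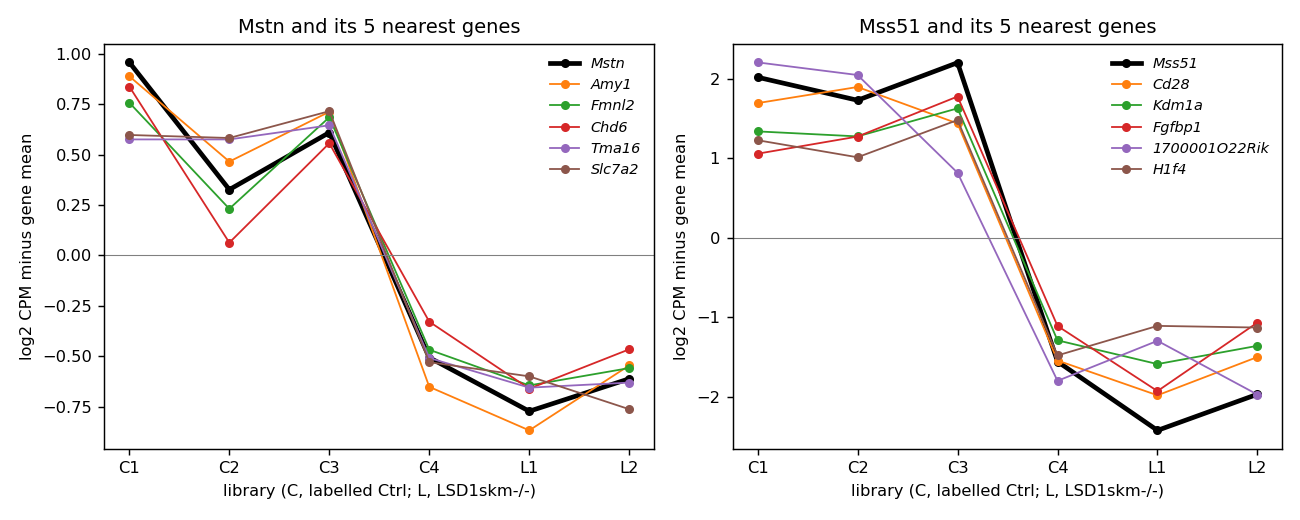
Log2 CPM minus the gene's own mean (vertical axes) in each library (horizontal axes: C, labelled Ctrl; L, LSD1skm-/-) for *Mstn* and its 5 nearest genes (left) and *Mss51* and its 5 nearest genes (right), with *Mstn* and *Mss51* in black. In both panels C1 to C3 lie above 0 and C4, L1 and L2 below it, a likeness that follows from the choice of nearest genes. *Kdm1a* is among the genes nearest to *Mss51* (0.598).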

How the data were processed

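The authors deposited raw counts of reads per gene, not normalized, for 6 of the 8 labelled libraries. The labels and methods describe single-end reads of a stranded kit, removal of adapter dimers, the mm10 genome and unique alignments, and name htseq-count and HOMER, whereas the aligner is not given in the sources used here. The submitters' processing notes name bcl2fastq 2.20.0.422.

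Tests covered every gene whose mean count exceeded 50 in the libraries fitted, and were run with edgeR 4.0.16 in R 4.3.3 (TMM, quasi-likelihood, Benjamini-Hochberg over all genes), by the labels and without the library labelled Ctrl replicate 4. Standard errors came from the fold change and the F statistic, CPM from the effective library sizes, and log2 CPM used a prior count of 2. DESeq2 1.42.0, other scalings and filters, a replicate block and leaving out libraries were alternatives. The method was tested on simulated data. Depth limits the genes with few reads (*Fst*, *Fstl3* and *Acvr2b*).

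The members, the list of other pathway genes and the 9 marker lists were chosen with earlier results of these data known. Named genes were the members, *Kdm1a*, called pathway genes, the 2 pathway genes of highest mean CPM per role, and the 5 profiles nearest to *Mstn* and to *Mss51*. Coordinates and exon lengths are from GENCODE vM21 (GRCm38).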

Additional observations from a re-analysis of the deposited data

Results flagged for a closer look

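For 23 genes and marker lists the 4 libraries labelled Ctrl were searched for a library that stands apart, by the gap to its nearest neighbour over the whole range on the log2 scale. In 4 of them a library stood apart. Chance flags about 1 in 20 groups, but these items share the same 4 libraries and were chosen with the data known, so their number is not measured against it. For *Mss51* the gap was 0.87 of the range and for *Kdm1a* 0.88, both set by the low level in the library labelled Ctrl replicate 4. On the linear scale the same gaps were 0.698 and 0.750, short of the limit. For the fibroblast markers it was 0.86, with a mean log2 CPM of 5.59 in the library labelled Ctrl replicate 4 against 4.98 to 5.07 in the other 3. For the adipocyte markers it was 0.86 and set by Ctrl replicate 3, with a mean log2 CPM of 0.99 against 3.80 to 4.25 in the other 3, where the library labelled Ctrl replicate 4 was the highest. No cause was tested. The other members, with *Mstn* at 0.569, stayed within the limit.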

How the results depend on the processing

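By the labels edgeR called 0 of 11364 genes (0%), 0 of 9 members and 0 of 51 other pathway genes. In that order, DESeq2 called 46 (0.405% of all genes), 1 and 2. An unadjusted edgeR p under 0.05 with a fold above 1.3 or below 0.77 gave 717 (6.31%), 2 and 6. A filter of at least 1 count called 149 of 27041 genes, 2 of 10 members and 3 of 69 pathway genes. Leaving out each library in turn gave 0 to 590 genes (6 when Ctrl replicate 3 was dropped, 590 when the library labelled Ctrl replicate 4 was dropped), 0 to 2 members and 0 to 3 pathway genes. With 1 library left out, 11200 to 11431 genes were tested, and the 590 genes were 5.27% of those tested. The other scalings and the filter of more than 50 counts in every library gave 0 of each.

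Settings chosen after the data were seen, all without the library labelled Ctrl replicate 4, gave 1037 genes, 2 members and 5 pathway genes with DESeq2, 574, 2 and 3 with DESeq2 size factors, 689, 2 and 4 with library sizes alone and 581, 2 and 3 with upper quartiles. Each of these fits tested 11200 genes, of which DESeq2 called 9.26%, and 11137 to 11237 were tested with 1 further library left out. Library sizes alone split the calls into 612 higher and 77 lower, beside 476 and 114 with TMM. Leaving out 1 further library gave 94 to 531 genes, 1 to 2 members and 0 to 3 pathway genes.

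The labels give the samples of the groups only a shared number. Correlations of deviations from the group means were -0.233 and -0.0334 for replicates 1 and 2. The 2 mutant libraries deviate from their mean by equal and opposite amounts, so these values cannot decide whether the samples are paired. With the replicate number as a block, 632 of 11364 genes, 3 of 9 members (*Acvr2b*, *Mss51* and *Mstn*) and 3 of 51 pathway genes were called. In this fit the comparison rests by construction on replicates 1 and 2.

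The log2 fold change kept its sign in all 22 alternatives for *Mstn* (-1.48 to -0.91), *Mss51* (-4.44 to -3.55), *Acvr2b* (-1.28 to -0.415), *Smad2* (-0.38 to -0.09), *Smad3* (-0.42 to -0.02) and *Smad7* (-0.52 to -0.23), and in all 21 for *Fstl3* (0.25 to 0.89), whereas the sign changed in 1 of 22 for *Acvr2a* and 3 of 22 for *Acvr1b*. The order of levels held at 10 of 10 ranks with library sizes alone and with the longest transcript. *Fst*, at a mean count of 47.7, was too low for the test.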
